A study of Mus musculus with 2 samples.

Results

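Pck1, Pdk4, Lpin1, Txnip, Angptl4, Cpt1a, Fkbp5, Tsc22d3 and Cyp2e1 are genes whose transcripts are known to respond to fasting, to the fatty acid receptors of the PPAR family or to glucocorticoid hormone. They were taken by name, as the non-control probes whose gene name in both scanner files is one of these 9, out of 31035 gene names on the array. The 9 genes had 13 probes on 22 spots, and all 13 probes were well above background in both genotypes. In all, 22719 gene names had at least 1 such probe. Dorsal skin was taken at postnatal day 0 from C57BL/6J mice, either Sdr9c7+/+ (wild type) or Sdr9c7-/- (knockout). Sdr9c7 is an epidermal dehydrogenase of the acylceramides of the skin barrier, and the arrays ask which transcripts differ without it. Each genotype had 1 array, hybridised with RNA pooled in equal parts from 5 animals. The sources used here give no litter, sex or feeding state of the animals, and do not say which part of Sdr9c7 was removed.

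In fasting, falling insulin and rising glucocorticoid and free fatty acids shift tissues from glucose to fat. PPAR receptors, bound to RXR partners, sense the fatty acids and switch on genes of fatty acid import and oxidation, while the glucocorticoid receptor switches on genes of fuel release together with its own feedback inhibitors. FoxO factors add to the response when insulin is low. In skin the same genes are used by keratinocytes, by fat cells of the dermis and by the thin muscle layer beneath it, so a bulk sample sums over all of them.

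Signals are given relative to the 75th percentile of the probes of an array, so that 1 is that percentile, and differences are log2 values, knockout minus wild type. With 1 array for each genotype no test was possible, and no value has a replicate check between animals. On each array 74.9% (wild type) and 76.8% (knockout) of probes were well above background. Sdr9c7 itself read 0.324 with the gene intact and 0.0479 in the knockout, a log2 difference of -2.76. The knockout minus wild type differences of probes of the same gene had a pooled SD of 0.23 (log2) over 5153 genes. The differences of spots of the same probe had a median SD of 0.06 over 320 probes. These values cover probe and spot error only.

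Of the 9 genes, 4 were at least 2-fold lower in the knockout (Pck1, Cyp2e1, Pdk4 and Lpin1), against 1.36% of all measured genes, and 0 were 2-fold higher, against 0.528%. At least 1.5-fold lower were 6, these and Txnip and Angptl4, against 6.05% of all genes. Cpt1a, Tsc22d3 and Fkbp5 lay within 1.5-fold. The median over the 9 was -0.81 and over all measured genes -0.04, and 8 of the 9 lay below 0, as did 56.9% of all genes. None of the 9 was at least 1.5-fold higher, against 2.36% of all genes. The 9 genes were brought together with results of these arrays known, so that their shared direction is a description. Lpin1 at 2.29-fold and Txnip at 1.76-fold were the nearest on either side of 2-fold, and Angptl4 at 1.54-fold and Cpt1a at 1.24-fold on either side of 1.5-fold. In RNA of whole skin, fewer cells of a type and less RNA in each cell cannot be told apart.

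**Figure D1:**
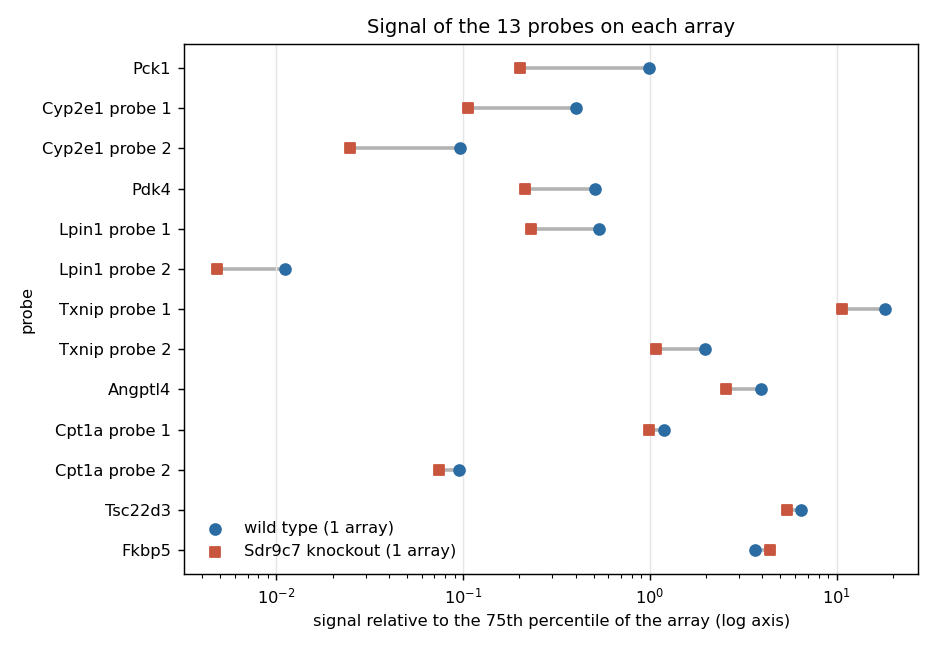
Signal of each of the 13 probes on the wild type array (circles) and the Sdr9c7 knockout array (squares), relative to the 75th percentile of the array on a log axis; a grey line joins the arrays. The knockout lies left of the wild type for 12 of the probes, by the most for Pck1 (0.990 against 0.201), and right of it for Fkbp5 (3.67 against 4.40).

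Pck1 encodes the cytosolic phosphoenolpyruvate carboxykinase, which feeds gluconeogenesis in liver and kidney and the making of glycerol for triglycerides in fat. Its probe (chr2:172984307-172984366, + strand; all probe positions are on mm9, the build of the scanner files) read 0.990 in wild type skin and 0.201 in knockout skin, 4.92-fold lower. Pck1 had rank 11 of 22719 from the lowest difference, and 0 of the 500 genes nearest to it in mean signal were as low; 2.5% of those 500 were below -0.72. The 166 detected spots around the Pck1 spot, within 10 rows and 5 columns, had a median difference of -0.06 and an SD of 0.32. The mitochondrial paralog Pck2 was at -0.03, from 0.0363 to 0.0356.

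Glucagon and cAMP are known to turn Pck1 on in fasting through an element close to its start. The 250 bases before a RefSeq transcript start are shown for the 5 genes with the lowest differences, to show which known response elements these windows hold, from RefSeq on GRCm38.p6, 5′ to 3′ on the gene's own strand. Capitals mark matches to any of 8 motifs searched on both strands, among them the cAMP response element of Pck1 (TTACGTCA) and the nuclear receptor core motif (AGGTCA), and Cyp2e1 and Pdk4 hold no match. For Lpin1 the table's start lies 42937 bases inside the gene, counted from its outermost start at 16653903, so its window precedes an internal start. For the other 4 the start is the outermost of the gene.
Pck1 (chr2:173152823-173153072, + strand): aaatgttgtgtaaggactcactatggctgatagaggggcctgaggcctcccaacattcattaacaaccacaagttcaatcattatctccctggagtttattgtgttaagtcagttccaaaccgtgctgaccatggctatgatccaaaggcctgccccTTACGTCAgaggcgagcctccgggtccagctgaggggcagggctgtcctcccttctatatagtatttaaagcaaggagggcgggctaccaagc
Cyp2e1 (chr7:140763569-140763818, + strand): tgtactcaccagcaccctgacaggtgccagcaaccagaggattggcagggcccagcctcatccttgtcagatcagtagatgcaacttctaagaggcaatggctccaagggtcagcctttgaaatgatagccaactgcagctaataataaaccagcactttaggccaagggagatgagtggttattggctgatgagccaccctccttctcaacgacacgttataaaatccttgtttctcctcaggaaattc
Pdk4 (chr6:5496279-5496528, - strand): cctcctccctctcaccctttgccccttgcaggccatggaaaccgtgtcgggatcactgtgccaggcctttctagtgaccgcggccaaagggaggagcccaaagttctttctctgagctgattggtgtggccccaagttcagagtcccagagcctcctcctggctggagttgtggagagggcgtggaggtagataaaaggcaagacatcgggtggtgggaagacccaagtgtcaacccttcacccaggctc
Lpin1 (chr12:16610967-16611216, - strand): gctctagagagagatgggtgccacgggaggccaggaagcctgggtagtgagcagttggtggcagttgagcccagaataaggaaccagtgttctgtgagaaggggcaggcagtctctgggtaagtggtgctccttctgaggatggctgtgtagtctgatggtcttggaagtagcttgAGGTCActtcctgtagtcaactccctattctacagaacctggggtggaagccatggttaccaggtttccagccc
Txnip (chr3:96557707-96557956, + strand): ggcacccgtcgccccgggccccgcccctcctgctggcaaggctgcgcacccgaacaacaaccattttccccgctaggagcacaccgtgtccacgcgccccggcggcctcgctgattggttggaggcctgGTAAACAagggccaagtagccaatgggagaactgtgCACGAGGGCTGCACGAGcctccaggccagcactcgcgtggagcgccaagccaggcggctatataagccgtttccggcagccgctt

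The match in Pck1 runs from 93 to 86 bases before the start, and the same letters stand in 0.447% of the 32851 promoter windows of this length. In Txnip, the capitals nearest to the start are a pair of CACGAG boxes spaced by 5 bases, from 85 to 69 bases before it and known as the element through which glucose-sensing factors act on this gene, and those further away a forkhead motif (GTAAACA), found in 3.17% of windows. The letters of the Pck1 element and of the Txnip pair were chosen after these sequences were seen, and Txnip is the 1 window of 32851 with that pair. The nuclear receptor core motif stood in the internal window of Lpin1 and, on the other strand, in that of Cpt1a, whose start lies 975 bases inside the gene, and in 14.0% of all windows. The E box CACGTG stood in Fkbp5 and in 6.02% of windows. The direct repeat of that core motif with a 1-base gap, to which PPAR with RXR binds and whose matches also count as the core motif, the palindromic glucocorticoid response element and the full cAMP response element TGACGTCA stood in none of the windows of these genes, and in 0.0335%, 0.00913% and 1.55% of all windows. Promoter windows were matched for 8 of the 9 genes, in 10 windows. Tsc22d3 had a window at its outermost start and others at starts 51951 and 57854 bases inside the gene. A match is a run of letters and no evidence of binding.

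Cyp2e1 encodes a cytochrome P450 that oxidises ethanol, acetone and other small molecules, is abundant in liver and is known to increase in fasting and diabetes. The gene was read by 2 probes. The probe on chromosome 7 at 147960628 to 147960687 (mm9) read 0.399 in Sdr9c7+/+ and 0.106 in Sdr9c7-/- skin, 3.76-fold lower. The probe at 147956922 to 147956981 read 0.0956 and 0.0246, 3.88-fold lower. Both gave the same direction, and their differences of -1.91 and -1.96 were 0.05 apart, less than the spread between probes of a gene. The sequence of the second, further upstream in the gene, is shown because a separate stretch of the transcript gave a difference of the same size.
Cyp2e1 upstream probe: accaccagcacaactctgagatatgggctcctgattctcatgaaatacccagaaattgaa
As the mean of its probes Cyp2e1 was at -1.93, rank 18 from the lowest difference. With no background subtracted it was at -1.55, and with another background correction (normexp) at -1.44. Other cytochromes of the same family were at -0.01 (Cyp2b19, an epidermal enzyme), 0.14 (Cyp2f2), 0.16 (Cyp2s1), 0.07 (Cyp2j6) and 0.46 (Cyp2b10). Since Cyp2e1 is known from liver, hepatocyte markers were examined. Of 12, 7 were well above background on both arrays, with summed signals of 0.334 (wild type) and 0.380 (knockout), and Apoa1, Ttr, Fgb, Fga and Apob were not. Of these sums, Ahsg alone made up 0.0164 and 0.0642. Albumin (Alb) read 0.0617 and 0.0657.

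Pdk4 encodes a kinase that blocks pyruvate dehydrogenase and so spares glucose, a PPAR and glucocorticoid target of muscle, heart and fat. Its probe (chr6:5433441-5433500, - strand) read 0.506 against 0.214 without Sdr9c7, 2.37-fold lower, at rank 118 from the lowest difference. Its spot lay in a band of rows taken as uneven from earlier results of these data. The 180 detected spots around it had a median of -0.02 and an SD of 0.38, against -1.24 for Pdk4, and with the bands left out the gene has no value. The other pyruvate dehydrogenase kinases were at -0.62 (Pdk2), -0.24 (Pdk3) and -0.07 (Pdk1).

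Lpin1 encodes lipin, a phosphatidate phosphatase that makes diacylglycerol for triglycerides and also acts with the coactivator of fatty acid oxidation genes, and is needed for fat cell formation. The first of its 2 probes (chr12:16543695-16543754, - strand) read 0.532 on the wild type array and 0.232 on the knockout array, and the second (chr12:16542515-16542574) 0.0111 and 0.00483. The second signal lay near the limit of detection, since the lowest probes well above background were at 0.00563 and 0.00427. The differences of the probes nevertheless were the same to 2 decimals, -1.20. With a normexp background correction, which draws dim signals together, the gene's difference was -0.71. The paralogs Lpin2 and Lpin3 were at -0.05 and -0.34.

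Txnip encodes an arrestin-like protein that binds thioredoxin and restrains glucose uptake, and its transcript follows glucose, glucocorticoid and FoxO signals. The downstream probe (chr3:96365147-96365206, + strand) read 18.2 and, in the knockout, 10.7, 1.69-fold lower. The upstream probe, on chromosome 3 at 96364206 to 96364265 (mm9), read 1.96 and 1.08, 1.82-fold lower. The probes were 0.11 apart on the log2 scale, and both read lower in the knockout. The upstream probe is shown for the same reason as that of Cyp2e1.
Txnip upstream probe: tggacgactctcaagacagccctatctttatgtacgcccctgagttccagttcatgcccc
Arrdc4, a close relative of Txnip and another target of glucose-sensing factors, was at -0.65, from 1.98 to 1.26. The other arrestin-domain genes were at -0.46 (Arrdc3), -0.45 (Arrdc2) and -0.02 (Arrdc1). Among the 11 measured thioredoxin and glucose-sensing partners of Txnip the median was -0.11, which turned to 0.03 with no scaling of the arrays. Of these, 2 were at least 1.5-fold lower, Arrdc4 and the insulin-responsive glucose transporter Slc2a4 (-0.74), and 0 were as much higher. The shares of all genes were 6.05% lower and 2.36% higher. Thioredoxin (Txn1) was at 0.04 and the glucose transporter Slc2a1 at 0.31, with the highest value, 0.40, at Mlx, the partner of the glucose sensors.

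Angptl4 encodes a secreted inhibitor of lipoprotein lipase that PPAR receptors, glucocorticoid and fasting induce. Its probe (chr17:33911880-33911939, - strand) read 3.93 on the wild type array and 2.56 on the knockout array, 1.54-fold lower, and 5.29% of all measured genes had a lower difference. With no scaling it was at -0.48, and with each array scaled to its median at -0.57, both within 1.5-fold. Of 8 measured genes of lipoprotein lipase control, the lipase Lpl was at -0.46 and its endothelial anchor Gpihbp1 at -0.25. Apoc3, at -0.83, was the 1 gene at least 1.5-fold lower, and 2 were as much higher, among them the endothelial lipase Lipg (0.94). Over all genes these shares were 6.05% and 2.36%. Apoc3 and Lipg were dim, with signals from 0.00624 to 0.0343.

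Cpt1a encodes the carnitine palmitoyltransferase that admits long-chain fatty acids to mitochondria, the controlling step of their oxidation. Its first probe (chr19:3385374-3385433, + strand) was printed at 10 positions across the array. They read from 1.08 to 1.26 with a median of 1.19 in the wild type, and from 0.939 to 1.02 with a median of 0.989 in the knockout. On this scale all 10 knockout spots were below the lowest of the wild type. The unscaled intensities overlapped, from 1885 to 2208 on the wild type array and from 1807 to 1960 on the knockout array, with 6 of the 10 knockout spots above the lowest wild type spot. At each of the 10 positions the knockout was lower on both scales. The log2 difference was -0.27 ± 0.04 (SD, 10 spots) and, unscaled, -0.13 ± 0.04, an error that measures printing and scanning and no animals. The second probe (chr19:3384060-3384119) read 0.0949 and 0.0743 (-0.35). As a mean of its probes Cpt1a was 1.24-fold lower (-0.31), and 16.5% of all measured genes had a lower difference. With no scaling that mean was at -0.17. Cpt1b, the muscle form of the enzyme, was at -0.89, and the brain form Cpt1c at -0.01.

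**Figure D2:**
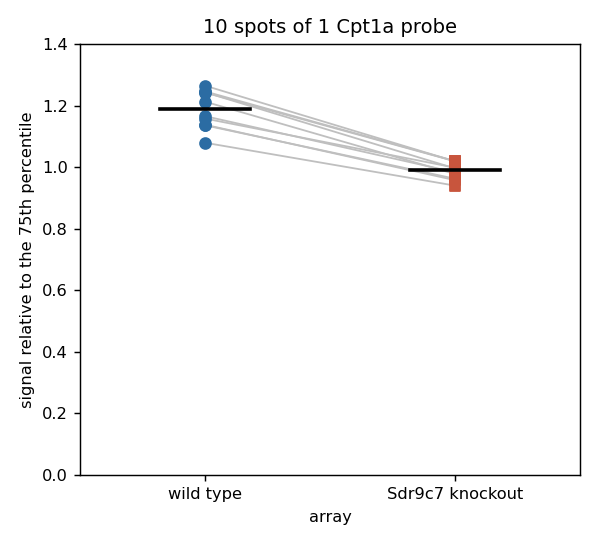
Signal of the 10 spots of the first Cpt1a probe on the wild type and the knockout array, relative to the 75th percentile of each; lines join the same position and black bars are medians (1.19 and 0.989). The spots are technical repeats within 1 array per genotype, and on this scale those of the knockout all lie below those of the wild type, while without the scaling 6 of the 10 lie above the lowest wild type spot.

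Fkbp5 and Tsc22d3 are the genes of this set best known as direct glucocorticoid targets. Fkbp5 encodes a co-chaperone that damps the glucocorticoid receptor, and Tsc22d3 the glucocorticoid-induced leucine zipper, an anti-inflammatory regulator. Fkbp5 (chr17:28536060-28536119, - strand) read 3.67 in wild type skin and 4.40 in knockout skin, 1.20-fold higher (0.26), and 88.6% of measured genes had a lower difference. It was above 0 under all 12 processing alternatives, from 0.25 to 0.40. Tsc22d3 (chrX:137074094-137074153, - strand) read 6.46 and 5.45, 1.18-fold lower (-0.24). Its spot lay in a band of rows taken as uneven from earlier results, and the 181 surrounding spots had an SD of 0.48. Both differences were about as large as the spread between probes of a gene, and each gene had 1 probe. Of 20 further glucocorticoid targets, 4 were at least 1.5-fold lower and 1 was as much higher, against 6.05% and 2.36% of all genes. The median of the 20 was -0.26. The lower ones were Mt1 (-0.78), a metal-binding protein, Cebpd (-0.70), a transcription factor of fat cell formation, and the Krüppel-like factors Klf9 (-0.62) and Klf15 (-0.60). The higher one was Dusp1 (0.80), a phosphatase of stress kinases that is also an immediate early gene, and Nfkbia was next at 0.32. Sgk1 and Per1 were at -0.17 and -0.14. With no scaling, 1 of the 20 was at least 1.5-fold lower, against 3.73% of all genes. The receptor and its machinery had a median of 0.00 over 12 genes. The receptor Nr3c1 was at 0.17 and the co-chaperone Fkbp4 at 0.18, while Hsd11b1, which regenerates active hormone within cells, was at -0.70 and the enzyme that supplies its cofactor, H6pd, at -0.37.

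**Figure D3:**
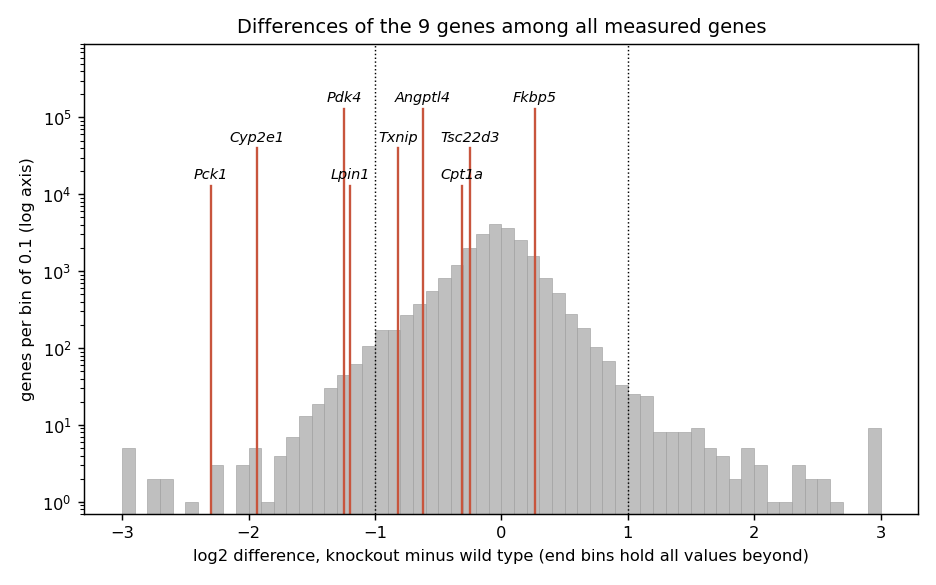
Number of measured genes in bins of 0.1 of the log2 difference, knockout minus wild type (grey, log axis, the end bins hold all values beyond), with the 9 genes as red lines, whose heights only separate the names, and the 2-fold limits dotted. Pck1 (-2.30) and Cyp2e1 (-1.93) lie in the sparse left tail, and Cpt1a, Tsc22d3 and Fkbp5 in the bulk.

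Of 26 measured genes of PPAR-driven fatty acid oxidation, 0 were at least 2-fold lower, 3 were at least 1.5-fold lower and 0 as much higher, with a median of -0.17. Over all measured genes the shares were 1.36%, 6.05% and 2.36%. The 3 were Cpt1b and Fabp3 (-0.85), a fatty acid carrier, both known from muscle, and Vnn1 (-0.89), which was dim. Fgf21, a fasting hormone, was at -0.16. Decr1 and Cpt2 were highest at 0.24 and 0.34. The receptors Ppara, Ppard and Pparg were at -0.18, 0.10 and -0.02. Among 14 receptors and coregulators, only Ppargc1a, the coactivator of mitochondrial genes, was at least 1.5-fold lower, at -1.11 from a dim 0.0940 to 0.0437, and Nrip1 followed at -0.43. Ppargc1b and Med1 were highest at 0.33 and 0.14.

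Among 12 measured genes of gluconeogenesis and glyceroneogenesis, the pathway of Pck1, 2 were at least 1.5-fold lower, the muscle fructose bisphosphatase Fbp2 (-1.08) and the glycerol phosphate dehydrogenase Gpd1 (-0.68), and 0 were as much higher. G6pc, which releases glucose in liver, was dim and at 0.08, and Gpt and Tat were highest at 0.24 and 0.09. Of 17 genes of insulin and FoxO signalling, 3 were at least 1.5-fold lower: the muscle ubiquitin ligases Trim63 (-1.19) and Fbxo32 (-0.93), which FoxO factors induce, and Cited2 (-0.65). Irs2, which FoxO factors also induce, was at -0.56, Foxo1 at -0.11, Irs1 at 0.15 and the dim Igfbp1 at 0.27. The medians of these lists were -0.22 and -0.27. Among all measured genes, 6.05% were at least 1.5-fold lower and 2.36% as much higher.

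The design text of the series speaks of epidermis and the sample labels of skin, and markers of fat, muscle and fibroblasts were all measured. Those of fat and muscle were also lower in the knockout. Beside the counts below, 6.05% of all measured genes were at least 1.5-fold lower and 1.36% at least 2-fold lower. Of 16 white adipocyte markers, all measured, 8 were at least 1.5-fold lower and 3 at least 2-fold lower, with a median of -0.61. Their summed signals were 109 (wild type) and 72.1 (knockout). Gpd1 and Lpl are in this list as well as in the pathway lists above. Cfd (-1.76) and Retn (-1.17), secreted by fat cells, were lowest, while the fat cell regulators Cebpa and Pparg were at -0.08 and -0.02. Of 22 skeletal muscle markers, all measured, 19 were at least 1.5-fold lower and 10 at least 2-fold lower, with a median of -0.97. Their summed signal was 386 and 227, from Pvalb (-2.26) and Actn3 (-1.52) to Myh3 (-0.54) and Myh2 (0.18). Pck1 had a lower difference than each of the 16 fat and 22 muscle markers, Cyp2e1 than all of them but Pvalb, and Pdk4 than all but 1 fat and 4 muscle markers. Txnip lay above 7 of the 16 fat and 15 of the 22 muscle markers. The part of fat and muscle in the differences of the 9 genes was not tested.

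Beside the counts in this paragraph, 6.05% of all measured genes were at least 1.5-fold lower and 2.36% as much higher. Most genes thus lay within 1.5-fold, as most of these markers did. Of 12 measured epidermal keratinocyte markers, 11 were within 1.5-fold. The dim Krt2 was lowest at -0.69, with Lor next at -0.15, Krt15 highest at 0.34 and Ivl at 0.26. The summed signal of the 12 was 434 and 442. All 10 fibroblast, 10 endothelial and 9 macrophage markers measured were within 1.5-fold, with medians of -0.03, -0.20 and 0.01. Fibroblast markers ran from Col1a1 and Vim, both at -0.20, to Thy1 (0.20) and Twist2 (0.26), with summed signals of 374 and 365. Endothelial markers summed to 24.4 and 18.8, from Egfl7 (-0.43) and Vwf (-0.40) to Eng (-0.13) and Flt1 (0.21). Macrophage markers summed to 9.03 and 9.16, from C1qa (-0.16) and C1qb (-0.15) to Adgre1 (0.25) and the dim Cd163 (0.43). Sebaceous gland markers had a median of 0.00 over 10, with 1 at least 1.5-fold lower, Plin5 (-1.11), a lipid droplet protein of oxidative tissues. Mc5r was at -0.50 and Elovl3 and the dim Dgat2l6 both at 0.29. The signals of the 10 summed to 98.3 and 117, of which Fabp5 alone made up 90.9 and 111. Brown adipocyte markers had a median of 0.09 over 8. Cox8b, also a muscle gene, and the dim Ppargc1a were both at -1.11. Ucp1 and Prdm16, also dim, were at 0.39 and 0.72. The 8 brown adipocyte markers summed to 7.23 and 5.01, of which Cox8b alone made up 4.19 and 1.94. Hepatocyte markers, all dim, had a median of 0.09 over 7, with Cps1 (-0.60) and Apoa2 (-0.10) lowest and Serpina1a (0.10) and Ahsg (1.97) highest. The medians near 0 turned sign under 1 or more alternatives for fibroblast, macrophage, sebaceous and hepatocyte markers, for the PPAR receptors, for the glucocorticoid machinery and for the paralogs of the 9 genes. Those of fat and muscle markers did not under any of the 12 alternatives, with ranges from -0.84 to -0.47 and from -1.01 to -0.83. Those of endothelial, keratinocyte and brown adipocyte markers kept their sign too, with ranges from -0.20 to -0.06, 0.03 to 0.18 and 0.09 to 0.29. So did those of fatty acid oxidation, gluconeogenesis, glucocorticoid targets, insulin and FoxO signalling and lipoprotein lipase control.

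**Figure D4:**
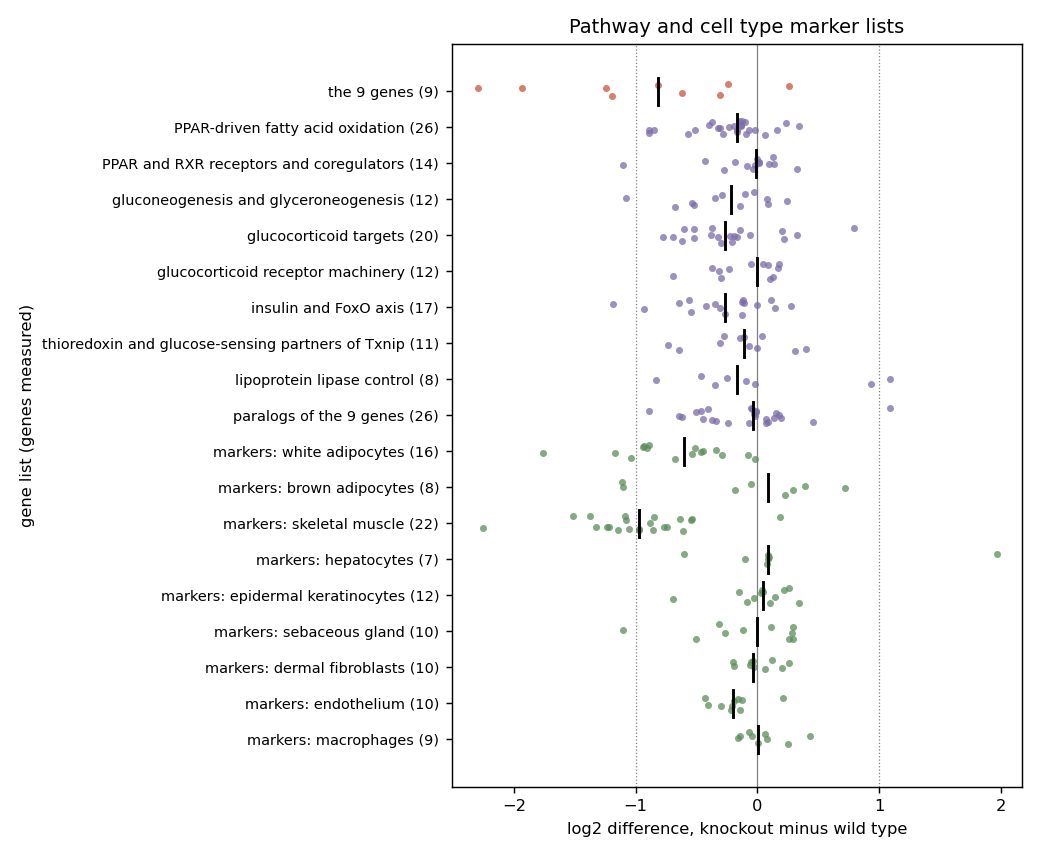
Log2 difference, knockout minus wild type, of each measured gene (points) in the pathway lists (purple) and cell type marker lists (green), with the 9 genes in red and the median of each list as a black bar; numbers in brackets are genes measured, dotted lines mark 2-fold. The medians of the 9 genes (-0.81), white adipocyte markers (-0.61) and skeletal muscle markers (-0.97) lie furthest left.

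The 9 genes kept their direction under all processing alternatives in which they had a value. Pck1 ranged from -2.30 to -2.14, Cyp2e1 from -1.93 to -1.44, Pdk4 from -1.24 to -1.10, Lpin1 from -1.20 to -0.71 and Txnip from -0.84 to -0.68. Lpin1 was the 1 gene that crossed the 2-fold limit. It was the gene with the dimmest probe.

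**Figure D5:**
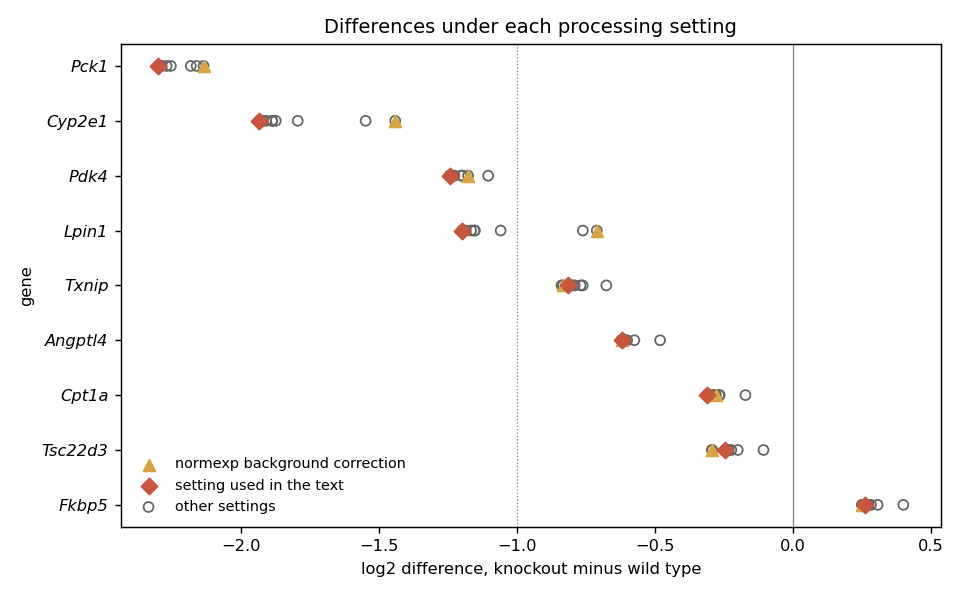
Log2 difference, knockout minus wild type, of each of the 9 genes under the setting used in the text (red diamonds), normexp background correction (triangles) and the other alternatives (open circles); the dotted line marks 2-fold lower. Fkbp5 lies above 0 and the other 8 genes below it under every setting with a value, and the widest spreads are those of Lpin1 (-1.20 to -0.71) and Cyp2e1 (-1.93 to -1.44).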

How the data were processed

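RNA of dorsal skin, 200 ng per array per the labels, was hybridised to 2 1-colour Agilent arrays, 1 wild type and 1 knockout. The deposited scanner files hold intensities per spot, extracted, detrended and background-subtracted with Agilent Feature Extraction 11.5.1.1, per the file headers. The deposited series matrix holds a ratio, found to be that intensity divided by 1 constant per array, 1906 and 2080, with no centring (medians 0.0855 and 0.0840). That scaling step was not given in the sources used here.

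From the processed intensity, log2 was taken, control spots and 192 outlier spots were left out, spots of a probe were averaged and each array's 75th percentile was subtracted. A gene's value is the mean over probes well above background on both arrays. Probes were named through RefSeq accessions (28325), symbols (2204) or synonyms (174), and 8714 kept the file's name. Arrays number 1 per group, so no test was run and the number of arrays limits precision. Members and gene lists were chosen with earlier results of these data known, and the rule named the 9 genes, Sdr9c7, the 2 highest and 2 lowest of each list, and paralogs. Further list members (Fgf21, Fabp3, Fabp5, Ppara, Ppard, Per1, Sgk1, Klf9, Klf15, Foxo1, Irs2, Cited2, Txn1, Gpihbp1, G6pc and Alb) were named after their values were seen. Some list members are not reported here. The steps were tested on simulated data. Python 3.11.15 and limma 3.58.1 were used. Which exon or UTR a probe lies in was not determined, since the gene table is on another build than the scanner files.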

Additional observations from a re-analysis of the deposited data

How the results depend on the processing

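Of 12 alternatives, 10 left each of the 9 genes that had a value within 1 probe SD (0.23) of it. With normexp correction Lpin1 was at -0.71, Cyp2e1 at -1.44 and Sdr9c7 at -2.05, and with no background subtracted at -0.76, -1.55 and -2.21; the cause was not tested. The median of the 9 ranged from -0.81 to -0.68 and the count at least 2-fold lower was 3 or 4. With block and bands of uneven rows left out, areas known from earlier results of these data, Pdk4, Tsc22d3 and Sdr9c7 have no value. Over all genes, 308 were 2-fold lower as reported, 103 with normexp, 119 with no background subtracted, 174 with no scaling, 192 without block and bands and 978 with no filter on dim probes, and the numbers higher were 120, 33, 40, 170, 68 and 814. With no scaling the median over all genes moved by 0.14, and the lower genes made up 50.6% of those past 2-fold, against 72.0%, and 54.6% with no filter on dim probes. List medians were added as a comparison after the data were seen. No paired analysis was possible because each genotype had 1 array. Signal over background limits Lpin1's second probe and the other dim genes.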
